A study of Drosophila melanogaster with 3 samples.

Results

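The spliceosome removes introns from pre-mRNA, and 32 of its protein genes were examined for binding of HmgD in Drosophila melanogaster embryos. They were taken from the Ensembl annotation by symbol. The rule was a symbol beginning with snRNP-U, Sf3a, Sf3b or U2af, or with LSm or Prp followed by a digit, or one of the named Sm genes. It found 32 of 18164 genes on the chromosome arms, all of them among the 13945 protein-coding genes. SmG, which the rule also names, is not analysed here.

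HmgD is a high-mobility-group box protein that bends DNA and is abundant in early embryonic chromatin. It was mapped by chromatin immunoprecipitation with an anti-GFP antibody in whole, mixed-sex embryos aged 0 to 24 h from a transgenic line, strain HmgD-GFP, with GFP fused to the C terminus of HmgD. There was 1 group of 3 biological replicates, with no second genotype or treatment, so the comparisons are between these genes and all others, and between replicates. Whole embryos mix all cell types, and the labels give neither the promoter that drives the tagged gene nor its level relative to untagged HmgD.

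Each replicate had a ranked list of candidate peaks that also holds background entries (28193, 30000 and 30000 entries). The 3 replicates pooled had a list of 30000 candidates, and 2964 of these were kept by the irreproducible discovery rate (IDR) step. The kept peaks were exactly the 2964 of highest signal, the lowest kept signal being 114.7 and the highest not kept 114.6. Signal is the authors' own value per peak and is compared only within a list. Across lists the rank percentile is used, in which 100 is the strongest entry. Depth is unknown because the lists hold no read counts, and control data were not used here.

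Splicing runs through a fixed order of particles. The U1 particle (snRNP) pairs with the 5' splice site, U2 and its SF3a and SF3b proteins settle on the branch site, and U2AF marks the 3' splice site. The U4/U6.U5 tri-snRNP then joins, and the Prp19 complex and RNA helicases drive activation and the chemical steps. Sm proteins form a ring around most of the spliceosomal RNAs, and LSm proteins form a like ring around U6. These proteins are needed in nearly all cells, in embryos as in adults.

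An IDR peak had its summit within 500 bp of an annotated transcription start site (TSS), here called the promoter window, at 9 of the 32 genes (28.1%, 95% Wilson interval 15.6 to 45.4). The background was 15.5% of all genes on the arms and 18.7% of protein-coding genes. The 9 genes were Sf3a1, snRNP-U1-C, Prp3, SmD3, snRNP-U1-70K, Prp31, Sf3b6, SmE and Prp40. Nearly all the genes had at least a candidate: 29 of 32 (90.6%, 75.8 to 96.8) had one in the pooled list, against 56% of protein-coding genes. Of the genes with a candidate, 9 of 29 (31.0%) had an IDR peak, against 2609 of 7807 protein-coding genes (33.4%), so among genes with a candidate the share was near the background. Intervals cover the sampling of genes only. By arm the count was 3 of 8 on 2L, 1 of 6 on 2R, 3 of 8 on 3L, 2 of 7 on 3R and 0 of 3 on X.

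In shorter sets of peaks the share came close to the background. With the IDR list replaced by pooled candidates that 2 replicates ranked among their strongest, 3 (9.38%), 4 (12.5%) and 5 (15.6%) of the 32 genes remained without replicates 1, 2 and 3, against 11.1%, 10.8% and 12.8% of protein-coding genes. Without replicate 1 the order was thus turned. Pooled candidates among the strongest of all 3 replicates were at Sf3a1, SmD3 and snRNP-U1-C, 3 of 32 (9.38%), against 9.08%. These sets also hold fewer peaks than the IDR list, and the effect of dropping a replicate cannot be told apart from that of the shorter set.

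Sequence at 7 of the peaks is shown, for the genes of highest signal and for those with the promoter words TATCGATA or GGTCACAC near the summit. It is from the dm6 (Release 6) genome of RefSeq, 5' to 3' on the strand of the spliceosome gene, within 100 bp of the summit and outside annotated exons. Capitals mark GGTCACAC, known as Motif 1 of Drosophila core promoters, and CGATA, the core of the DNA replication-related element (DRE), TATCGATA, on either strand. For Sf3a1 the stretch is chr3R:17002356-17002507 on the minus strand, for Prp3 chr3L:19910216-19910299 on the plus strand and for Sf3b6 chr3L:6193180-6193346 on the minus strand. For snRNP-U1-C, whose summit itself lies in an exon of its neighbour, it is chr3R:18983966-18984024, for SmE chr2L:7885451-7885502 and for snRNP-U1-70K chr2L:6971814-6972014, all on the minus strand, and for Prp31 it is chr3L:15158824-15159024 on the plus strand.
Sf3a1: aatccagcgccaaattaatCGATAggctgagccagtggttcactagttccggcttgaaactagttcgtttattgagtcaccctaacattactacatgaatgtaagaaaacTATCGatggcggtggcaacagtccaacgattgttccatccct
snRNP-U1-C: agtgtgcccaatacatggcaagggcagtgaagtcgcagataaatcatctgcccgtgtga
Prp3: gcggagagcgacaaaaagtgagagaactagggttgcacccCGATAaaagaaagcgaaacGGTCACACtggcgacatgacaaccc
Sf3b6: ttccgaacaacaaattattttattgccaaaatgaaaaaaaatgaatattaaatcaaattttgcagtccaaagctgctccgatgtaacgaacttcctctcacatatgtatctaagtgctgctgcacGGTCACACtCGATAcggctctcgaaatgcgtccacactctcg
SmE: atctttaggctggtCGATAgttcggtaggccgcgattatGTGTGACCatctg
snRNP-U1-70K: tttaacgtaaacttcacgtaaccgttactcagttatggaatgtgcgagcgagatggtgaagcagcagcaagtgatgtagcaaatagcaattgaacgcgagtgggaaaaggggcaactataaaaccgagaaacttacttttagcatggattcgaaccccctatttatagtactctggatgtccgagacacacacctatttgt
Prp31: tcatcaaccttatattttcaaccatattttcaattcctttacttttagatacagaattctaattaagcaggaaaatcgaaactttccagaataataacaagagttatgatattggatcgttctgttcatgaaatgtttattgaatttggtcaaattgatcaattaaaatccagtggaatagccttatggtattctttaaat

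The Prp3 and Sf3b6 stretches each held GGTCACAC on the gene's own strand, from 25 to 32 bp downstream of the summit, with a CGATA within 15 bp of it. In SmE the same word ran on the other strand, from 18 to 11 bp upstream of the summit. The full TATCGATA near the SmE summit lies in an exon of its neighbour and is not printed. Sf3a1 held 2 copies of CGATA, beginning at -133 and -42 bp from its TSS (negative is upstream). The snRNP-U1-C, snRNP-U1-70K and Prp31 stretches held no word in capitals, and Prp31 had the lowest GC content of the 9 peaks, 27.4% against a median of 43.3% within 100 bp of the summit.

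U1 proteins had the highest share of any role, with an IDR peak at 3 of 4 genes, against 18.7% of protein-coding genes. The roles hold only 3 to 10 genes each, and the difference between them was not tested. With a 250 bp window or nearest TSS only, snRNP-U1-C was not counted. snRNP-U1-C, which steadies the pairing of U1 RNA with the 5' splice site, had a signal of 184 (rank 1032, chr3R:18983864-18984267). Its nearest candidate within 200 bp of that summit lay at the 94.1, 37.4 and 98.3 percentile in replicates 1, 2 and 3. The low value in replicate 2 was not an empty promoter: that list's strongest candidate there was at the 92.9 percentile, with an offset from the TSS of -254 bp against -416 bp for the pooled summit. snRNP-U1-70K, which binds a stem-loop of U1 RNA, had a signal of 148 (rank 1711, chr2L:6971712-6972115) and percentiles of 95.1, 92.0 and 89.0. All 3 replicates placed that site high. Prp40, a U1-associated protein in yeast, was at 118 (rank 2803, chr2L:3023010-3023413) with 78.3, 96.4 and 59.7, so replicate 2 alone ranked it among its strongest. Prp39, also a U1 protein in yeast, had a candidate at rank 4334, below the IDR peaks, though replicate 3 placed it at 93.6.

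Of the 6 Sm ring genes, SmD3 and SmE had IDR peaks. SmD3 had a signal of 169 (rank 1278, chr2R:12168432-12168835) and percentiles of 89.5, 95.8 and 95.3, high in every replicate. SmE had 118 (rank 2802, chr2L:7885243-7885646) with 82.4, 88.7 and 89.5. The SmE values were alike between replicates, and none placed it among its own 2964 strongest. The other ring genes had weaker candidates, SmD2 at rank 5222, SmD1 at 6708, SmB at 12171 and SmF at 14941. SmD2 showed the widest disagreement of these, with percentiles of 87.3, 3.48 and 87.5.

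None of the 3 LSm genes had an IDR peak. LSm1 belongs to the cytoplasmic ring that acts in mRNA decay, while LSm3 and LSm7 are shared with the U6 ring. LSm1 had the strongest candidate of the 23 spliceosome genes without an IDR peak, at rank 3719 with a signal of 102.2, against 118.0 for Prp40, the weakest gene with one. Its percentiles were 86.0, 88.8 and 93.5, a narrow range with replicate 3 highest. LSm7 stood at rank 6469 with 92.3, 15.0 and 29.1, so only replicate 1 ranked it highly, and LSm3 stood at rank 8955 with no match in replicate 1.

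The U2 and 3' splice site proteins were the largest role, with IDR peaks at 2 of 10 genes. Sf3a1, a subunit of SF3a, carried the strongest peak of all 32 genes, with a signal of 256 (rank 385, chr3R:17002205-17002608). It stood at the 96.3, 98.5 and 99.3 percentile, the narrowest range of the 7 peaks matched in all 3 replicates. Sf3b6, whose human counterpart contacts the branch-site adenosine, had 120.3 (rank 2705, chr3L:6193044-6193447). Its percentiles were 95.4 and 88.8 in replicates 1 and 3, and replicate 2 had no candidate within 200 bp of that summit. The strongest candidate of replicate 2 at that promoter was at the 81.1 percentile, with an offset of -453 bp.

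Without an IDR peak were Sf3b1 (rank 4150), the large SF3b subunit that grips the branch site, U2af50 (6585), the polypyrimidine-tract binder, and Sf3a2 (7676). These 3 genes were among the strongest of replicate 1 but not of the others: Sf3b1 was at 92.5, 78.9 and 65.4, U2af50 at 91.4 and 22.0 and Sf3a2 at 93.4 and 26.8, the last pair with no match in replicate 3. Prp5, a helicase of branch-site recognition in yeast, was at rank 9162, Sf3b2 at 20649 and Sf3b3 at 22532. Sf3b5 and U2af38, which reads the AG at the 3' splice site, had no pooled candidate in the window. The nearest IDR summit to a TSS of Sf3b5 was 1068 bp away, the closest of the spliceosome genes without a promoter IDR peak.

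Among the 6 tri-snRNP and activation genes, Prp3 and Prp31, both proteins of the U4/U6 particle, had IDR peaks. Prp3 had a signal of 169 (rank 1271, chr3L:19910048-19910451) and percentiles of 95.0, 86.2 and 97.0. Prp31 had 126 (rank 2456, chr3L:15158722-15159125) with 96.0 and 93.8 in replicates 1 and 2. Replicate 3 had no candidate within 200 bp of the Prp31 summit, and its strongest at that promoter was at the 9.58 percentile, 167 bp downstream of the TSS. Prp38, needed for activation in yeast, was at rank 5820, Prp8, the scaffold of the catalytic centre, at 7341 and Prp6, which bridges U5 with U4/U6, at 9688. Prp6 spread widely, with percentiles of 84.8, 41.3 and 5.71. Prp4k, a protein kinase, had no pooled candidate. The ubiquitin ligase gene Prp19 (rank 6173) and the second-step genes Prp18 (9401) and Prp16 (9871) all had candidates but no IDR peak.

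**Figure D1:**
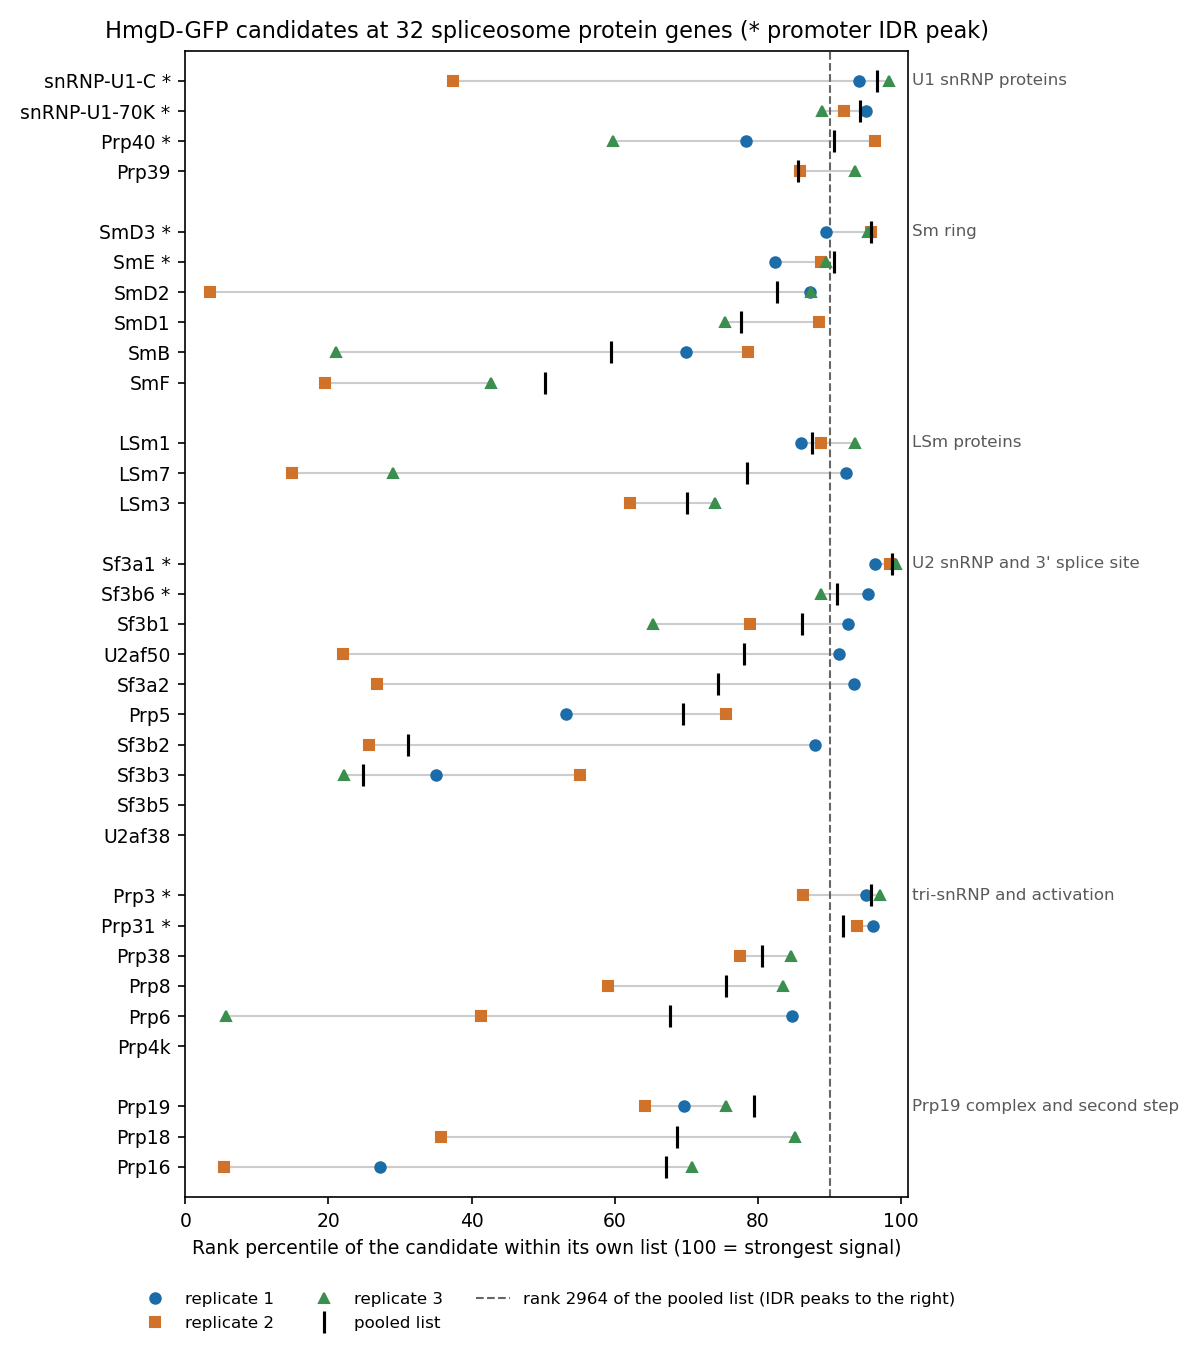
Rank percentile (100 = strongest) of the candidate at each of the 32 genes, in each replicate and the pooled list, grouped by role. The percentile in a replicate is that of the nearest candidate within 200 bp of the pooled summit, and a missing symbol means none. Sf3a1 lies above 96 in all 3 replicates, while SmD2, LSm7, U2af50 and Prp6 are far apart between replicates.

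Taking the 2964 strongest candidates of each replicate, 11 (34.4%, Wilson interval 20.4 to 51.7), 6 (18.8%, 8.89 to 35.3) and 6 (18.8%) of the 32 genes had one at the promoter in replicates 1, 2 and 3. Over protein-coding genes the shares were 20.5%, 17.9% and 16.6%. The mean was 24.0% ± 9.02 for the spliceosome genes and 18.3% ± 1.98 for protein-coding genes (SD, n = 3), and within a replicate the spliceosome genes were higher by 13.9, 0.815 and 2.20 percentage points in replicates 1, 2 and 3. The mean difference of 5.64 was smaller than its SD over replicates, 7.20, though of 1 sign in 3 of 3. Sf3a1, SmD3 and snRNP-U1-C were in this set in all 3 replicates, 3 of 32 against 9.91% of protein-coding genes. In at least 1 replicate it held 14 of the 32, against 27.7%. Those without an IDR peak were LSm7, Sf3a2, Sf3b1 and U2af50 in replicate 1 and LSm1 and Prp39 in replicate 3.

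A larger difference from the background lay below the IDR peaks. The strongest promoter candidate of 16 of the 32 genes (50%) ranked after the 2964 IDR peaks but within the 10000 strongest of the pooled list, against 19.5% of protein-coding genes. Within those 10000 candidates, 25 of the 32 genes (78.1%, Wilson interval 61.2 to 89.0) had one at the promoter, against 38.2% of protein-coding genes. At the top of the list there was no such gap, since the 1000 strongest candidates took in 1 of 32 genes (3.13%), Sf3a1, against 7.14% of protein-coding genes. The level of 10000 was chosen after the ranks were seen, and its interval does not allow for that choice. Within the 5000 strongest candidates the shares were closer, 12 of 32 genes (37.5%) against 27.0% of protein-coding genes.

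Each replicate's own list gave the same order at that level. The pooled list, on which the level was chosen, was made from these 3 replicates, so their agreement is not separate support. In replicates 1, 2 and 3, 22 (68.8%), 17 (53.1%) and 17 (53.1%) of the 32 genes had a promoter candidate among the 10000 strongest, against 37.4%, 36.8% and 34.4% of protein-coding genes. The means were 58.3% ± 9.02 and 36.2% ± 1.60 (SD, n = 3), with differences within replicates of 31.4, 16.3 and 18.8 percentage points (mean 22.2 ± 8.07, SD, n = 3). Every replicate's share for the spliceosome genes lay above every share for protein-coding genes. Agreement on which genes was less: 10 of 32 (31.3%) were within the 10000 strongest in all 3 replicates, against 23.1% of protein-coding genes. The median rank of the 29 candidates was 6173, against 5345 for the strongest promoter candidates of protein-coding genes, so the genes with a candidate were more often of middle than of high rank.

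**Figure D2:**
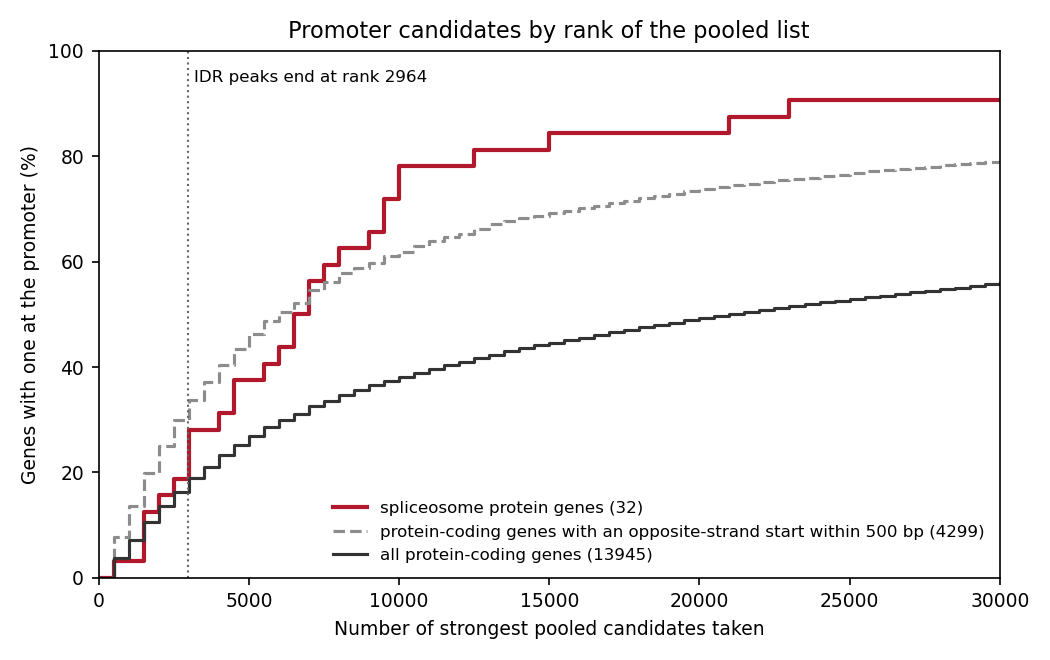
Share of genes (%) with a promoter candidate among the strongest pooled candidates, by the number taken, for the 32 spliceosome genes, for protein-coding genes with an opposite-strand start within 500 bp and for all protein-coding genes. The spliceosome line reaches 28.1% at the last IDR peak and 78.1% at 10000 candidates, where all protein-coding genes are at 38.2%.

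Many of these genes start close to a gene on the other strand. Such a start lay within 500 bp of a TSS of 21 of the 32 genes (65.6%), against 30.8% of protein-coding genes. Within 250 bp there were 13 of 32 (40.6%, against 16.7%), and within 1000 bp 29 of 32 (90.6%, against 41.3%). Protein-coding genes with such a start also had IDR peaks more often, 33.5% against 12.1% of those without one. Set against genes with such a start within 500 bp, the spliceosome genes were not above the background in IDR peaks, at 6 of 21 (28.6%) against 33.5%. Within 250 bp the values were 4 of 13 (30.8%) against 36.3%. Within 1000 bp the order was turned, with 9 of 29 (31.0%) against 29.9%. Without an opposite start within 500 bp, 3 of 11 had a peak (27.3%) against 12.1%. These were Sf3a1, Prp31 and snRNP-U1-70K, each with an opposite start at 506 to 538 bp. At the level of 10000 candidates the spliceosome genes with a close opposite start were at 17 of 21 (81.0%) against 61.9%, while at 5000 candidates the order was turned, with 8 of 21 (38.1%) against 46.2%.

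All 9 IDR peaks had a summit within 500 bp of a TSS of another gene, in each case on the opposite strand. Over protein-coding genes, 56.7% of promoter IDR peaks had another gene's TSS that close, on either strand. Within 250 bp it was 6 of 9, against 47.0%, and with protein-coding neighbours only 8 of 9, against 53.5%. Most of the neighbours encode proteins outside splicing. They were the nucleosome remodeller gene Mi-2 at Prp3, the mismatch repair gene Msh6 at Prp31, the nuclear import gene Tnpo at Sf3b6 and the antizyme gene Oda at SmD3. Irc lay at Sf3a1, gukh at snRNP-U1-C, alpha4GT1 at Prp40 and CG34132 at SmE, while the neighbour of snRNP-U1-70K was the pseudogene CR43142. Starts were as close as 53 bp at SmE and 85 bp at Prp3 and at Prp40. To which gene of a pair the binding belongs cannot be told apart. By distance, the spliceosome gene's TSS was the nearest at 7 of 9 (77.8%), near the 73.1% over promoter IDR peaks of protein-coding genes, and the neighbour's at Prp3 and snRNP-U1-C.

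The summit lay between both starts at 7 of the 9 genes. The exceptions were SmE, where it was 5 bp downstream of the SmE TSS, and snRNP-U1-C, where it was 41 bp inside gukh, in an untranslated exon. The SmD3 summit lay in an intron of Oda, since the Oda start nearby is an internal one of that gene. The SmE summit also lay in an intron of CG7102. The summits had a median offset of -67 bp from the TSS, against -68 bp over promoter IDR peaks of protein-coding genes, and 8 of 9 lay upstream, against 81.7%. The remaining offsets ran from -14 bp at Prp40 to -177 bp at snRNP-U1-70K. The median signal was 148, against 166, and the median GC content 43.3%, against 41.8%. In position and base composition the 9 medians were thus close to those of other promoter peaks. In signal they were lower, with a median rank of 1711, against 1329, a difference that was not tested.

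Fewer of them were found in every replicate, a difference that was not tested. A candidate within 200 bp in every replicate was found for 7 of 9, against 96.2% over protein-coding genes. By the nearest such candidate, 2 of 9, Sf3a1 and SmD3, were among the strongest of all 3 replicates, against 49.2%. snRNP-U1-C was left out because its nearest candidate in replicate 2 was weak. The stronger candidate at -254 bp also lay within 200 bp of the summit. The 2 peaks lacking a match were Prp31 in replicate 3 and Sf3b6 in replicate 2.

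**Figure D3:**
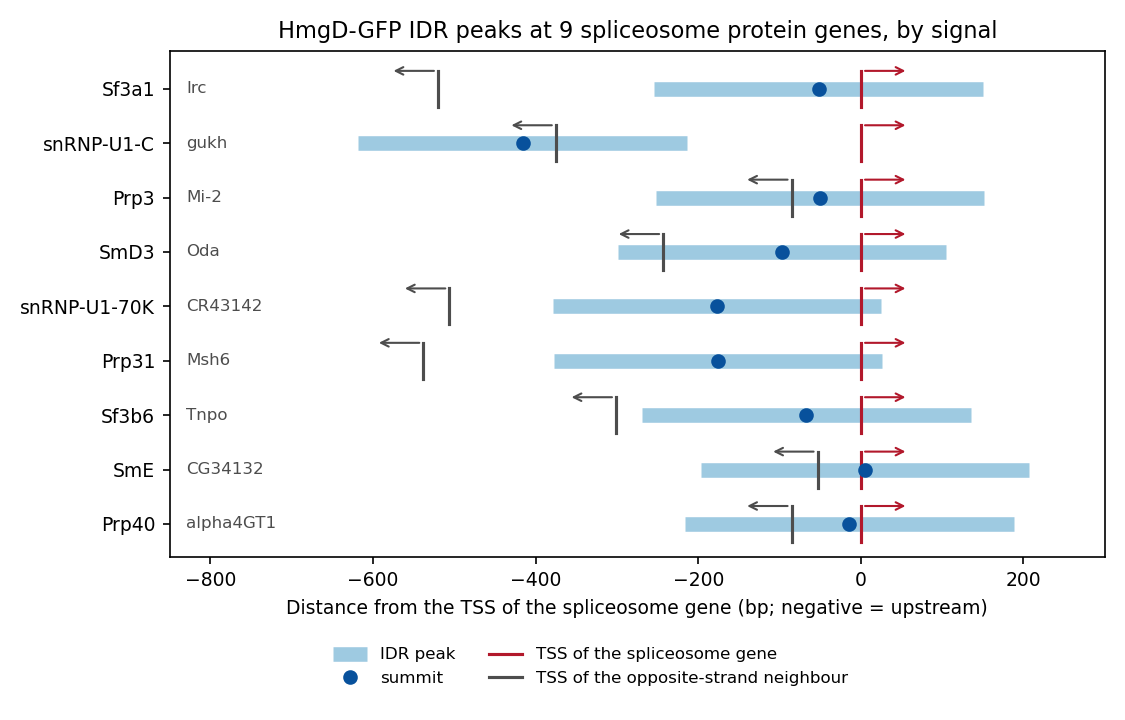
Position of the 9 IDR peaks (bars, 404 bp each) and their summits (points) relative to the TSS of the spliceosome gene (red) and of the opposite-strand neighbour (grey), in bp, ordered by signal. At snRNP-U1-C the summit lies inside the neighbour gukh, 416 bp upstream of the snRNP-U1-C TSS.

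The words were searched on both strands within 100 bp of the summit and compared with all 2106 promoter IDR peaks. CGATA, which is also part of TATCGATA, was at 6 of 9 spliceosome peaks, against 45.3% of all, and GGTCACAC at 3 of 9, against 9.73%. TATCGATA was at 1 of 9, SmE, against 11.1%. The E-box CAGCTG was at SmD3 alone (1 of 9, against 14.9%), and the TATA box TATAAA and the initiator core TCAGT at snRNP-U1-70K alone (18.6% and 33.0% of all). GAGAG, the GAGA element, and AAAAAAA were both at Prp3 and Sf3b6 (27.1% of all for GAGAG, and 337 of 2106 for AAAAAAA). AGGTGGCGC, a core of the CTCF site, was at none, against 0.997% of all. snRNP-U1-C and Prp31 held none of the 9 words.

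The promoters of all 32 genes, taken from 250 bp upstream to 50 bp downstream of a TSS, were searched for the same words. GGTCACAC was in 9 of 32 (28.1%), against 7.70% of protein-coding promoters, and in 13.5% of those with a close opposite start. TATCGATA was in 8 of 32 (25%), against 9.36%, and 16.4% with a close opposite start. At least 1 of the 2 words was in 16 of 32 (50%), against 16.1%. For this pair of words the share with a close opposite start was not computed. CGATA was in 23 of 32 (71.9%), against 47.4%, and 60.3% with a close opposite start. GAGAG was in 4 of 32 (12.5%), against 29.7%, and 24.3% with a close opposite start.

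The words were found both at spliceosome genes with an IDR peak and at those without. Of the 16 genes with TATCGATA or GGTCACAC, 5 had an IDR peak (Prp3, Sf3b6, SmE, snRNP-U1-70K and snRNP-U1-C) and 11 did not, among them Sf3b1, SmB, SmD2, Prp6 and U2af38. Over protein-coding genes with either word, 32.8% had an IDR peak, against 18.7% of all protein-coding genes. Whether the words go with a peak among the 32 genes was not tested. A match describes the letters in the window and is not evidence of a bound factor.

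**Figure D4:**
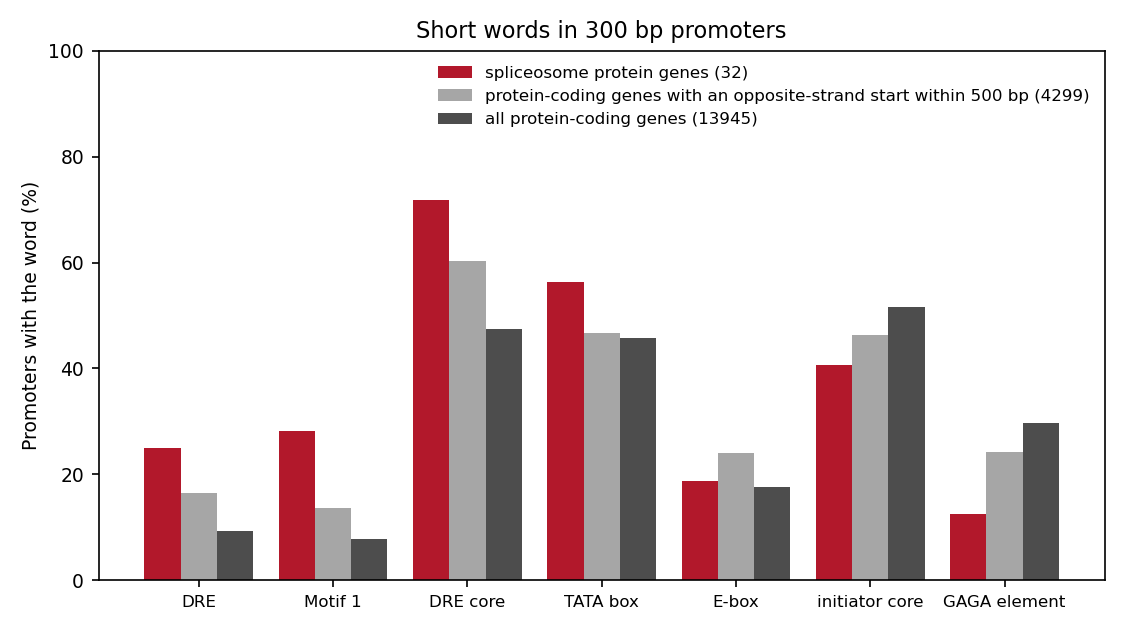
Share of promoters (%, from 250 bp upstream to 50 bp downstream of the TSS) that hold each word, for the 32 spliceosome genes, for protein-coding genes with an opposite-strand start within 500 bp and for all protein-coding genes. Motif 1 is at 28.1%, 13.5% and 7.70%, and the GAGA element runs the other way, at 12.5%, 24.3% and 29.7%.

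Other splicing genes were taken from hand-written lists by function, 74 genes in all. A list can hold genes outside the complex it is named for. An IDR peak was at the promoter of 28 of them (37.8%), beside 18.7% of protein-coding genes. Further snRNP-associated and catalytic proteins had 5 of 13, led by hoip (signal 204), which binds U4 RNA, snf (164), a U1 and U2 protein, and CG6686 (141). The list named for the Prp19 complex and step factors had 5 of 16, led by Acn (271), ecd (213) and Slu7 (159), a second-step factor. SR proteins, which mark exons, and their kinases had 4 of 12, led by the kinase gene SRPK (200.5), SC35 (159) and B52 (153).

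Regulators that bind RNA and choose splice sites had the highest share, 12 of 22, led by glo (signal 276), elav (248), a neuronal regulator, and rump (246). The exon junction complex list had 1 of 4, mago (180.2). The list named for the SMN complex, which loads Sm rings onto RNA, had 1 of 7, Smn itself (117). Over all these lists the peak also lay within 500 bp of another gene's start at 19 of 28 genes, beside 56.7% over protein-coding genes. By list this held for 5 of 5 snRNP-associated, 5 of 5 Prp19-type, 2 of 4 SR, 1 of 1 exon junction and 1 of 1 SMN genes, and for 5 of 12 regulators. The difference between the lists was not tested.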

How the data were processed

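HmgD-GFP chromatin immunoprecipitation was sequenced in 3 replicates of 1 group, with chromatin sonicated to 200 to 800 bp per the labels. The authors deposited candidate peak lists per replicate and pooled, and an IDR list. The signal per peak is the value the authors deposited. Per the file descriptions, candidates were made with a control. The aligner, peak caller and IDR threshold were not given in the sources used here. Lists on dm6 were used, with 1-based coordinates, Ensembl 115 genes and the RefSeq Release 6 sequence.

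A gene was called when a summit lay within 500 bp of any of its TSSs. Sites in replicates were matched to the nearest candidate within 200 bp, and a gene's own strongest candidate was ranked separately. No test was run, because there was 1 group: shares are set beside those of all or protein-coding genes, with Wilson 95% intervals, and replicates give the SD. Replicates were separate biological samples per the labels.

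Every gene of the rule is named or counted. Those with an IDR peak are given in full, and of each further splicing list up to 3 genes of highest signal. Sequence was printed for genes of highest signal and for those with TATCGATA or GGTCACAC at the peak, outside exons. Sequence of SmD3 is not printed. The genes, lists and words were chosen with earlier results of these data known, and the opposite-start and 10000-rank comparisons after the values were seen. Of the listed splicing symbols, Sf1, l(1)G0007, eIF4A3, bl, Gem4a and pICln were not matched. LSm10 and LSm11, named in an alternative, were not among the 32 genes, so that alternative left out LSm1 alone.

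Alternatives covered the promoter window, peak interval, nearest TSS, a stricter signal level, a consensus of the replicates, leaving out each replicate, match distances and word windows. The scripts were tested on simulated data. Python 3.11.15, NumPy 2.4.6, SciPy 1.17.1 and Matplotlib 3.10.9 were used.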

Additional observations from a re-analysis of the deposited data

How the results depend on the processing

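Of 67 alternative values, 46 stayed with the reported one and 21 moved. As counts none changed sign. Set beside protein-coding genes, the IDR share turned order without replicate 1, at 3 of 32 (9.38%) against 11.1%. Orders also turned for words at the 9 summits, set beside all promoter IDR peaks. Within 50 bp, GAGAG was at 2 of 9 (against 14.7%) and TATAAA at 1 of 9 (against 8.26%). AAAAAAA and TATCGATA were at 0 of 9 (against 6.89% and 7.22%). The median offset stayed at -67 bp. Over protein-coding genes -68 bp became -48 bp with the most upstream TSS and -44 bp with nearest TSS only. The count of 9 spliceosome genes with an IDR peak fell to 4 in the stronger 1482 IDR peaks, to 3 in the consensus of the replicates and to 3 to 5 leaving out each replicate (3 without replicate 1, 4 without replicate 2, 5 without replicate 3). These sets hold fewer peaks by construction (1297 to 1808), and protein-coding shares fell too, to 9.08% to 12.8%. Sf3a1, SmD3 and snRNP-U1-C were in all 5. The 28 other splicing genes became 12 in the stronger peaks, 12 in the consensus and 14 to 19 leaving out a replicate. The median signal was 137 with a 250 bp window and 126 with nearest TSS only, against 166 and 164 over protein-coding genes. The replicate mean share was 12.5% at 1482 candidates and 43.8% at 5928, against 10.2% and 28.3% of protein-coding genes. The median replicate percentile of the IDR peaks, 92.1, was 88.4 with matches up to 400 bp and 90.5 to 92.7 leaving out a replicate. Of the added values, the 25 genes within 10000 candidates (78.1%, against 38.2% of protein-coding genes) became 12 within 5000 (37.5%, against 27.0%). The cause was not tested. No paired analysis was possible because there was 1 group of samples. Shares of spliceosome and protein-coding genes from the same replicate list differed by 0.815 to 13.9 percentage points at 2964 candidates and 16.3 to 31.4 at 10000, all positive. With 32 genes an interval of 15.6 to 45.4% around 28.1% includes the protein-coding share of 18.7%, which is not a test. Read depth is unknown.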
